A study of Mus musculus with 6 samples.

Results

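Among the genes expressed in the irradiated mouse prostate, 43 genes had similar mean levels in wildtype mice and in mice with 1 R270H allele of Trp53, and met a criterion of lower or higher level in both mice that carried 2 such alleles. They are called the module here. The 31 genes that met it at the lower side are called the falling genes, of which 30 were lower in both homozygous mice than in all others and 1, Gm23442, was listed at 0 in mice of every genotype. The 12 that were higher are called the rising genes. The members were chosen on their deposited FPKM (fragments scaled by transcript length and by the number of mapped fragments) in 3 steps, from 47719 gene identifiers in all. The mean FPKM over the 6 mice had to be at least 3, which 11028 genes reached. The heterozygous mean divided by the wildtype mean had to lie between 0.87 and 1.15, which left 7121 genes. Both homozygous values then had to be at most 0.75 times the lowest, or at least 1.33 times the highest, of the 4 wildtype and heterozygous values. These steps used every mouse, so the levels given below describe the members and test nothing about them.

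Bulk RNA of 1 prostate per mouse was sequenced from 2 mice of each of 3 genotypes of the strain B6.129S4-Trp53tm3.1Tyj/J. Mice 39 and 41 were wildtype (Trp53+/+), mice 37 and 40 heterozygous (Trp53R270H/+) and mice 47 and 49 homozygous (Trp53R270H/R270H), the numbers being those of the animals. Whole body irradiation with 5 Gy was given to every mouse at an age of about 3 months, the prostate was taken after 6 h, and no unirradiated mouse is part of the comparison, so a response to radiation cannot be told apart from a level that was there before it. No Cre line or tissue-specific promoter is named for the allele in the labels or the methods. Bulk RNA cannot tell fewer cells of a type apart from less RNA per cell. Trp53 itself had an FPKM of 17.3 and 21.4 in wildtype and 20.9 and 19.6 in heterozygous mice, compared with 20.8 and 18.3 in homozygous mice, and its groups overlapped. Gene-level FPKM does not separate the alleles.

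The p53 protein is a transcription factor that binds DNA as a tetramer and is stabilized after DNA damage, and R270H replaces a residue of its DNA-binding domain. In a heterozygous cell, tetramers can hold mutant and wildtype subunits together, while a homozygous cell has mutant protein only. The largest group among the falling genes serves the endoplasmic reticulum (ER), where secreted and membrane proteins are folded. Chaperones of the Hsp70 and Hsp90 families hold unfinished chains there, disulfide isomerases pair their cysteines, and chains that fail to fold are returned to the cytosol and degraded. When unfolded protein accumulates, the sensors Ern1 (IRE1), Atf6 and Eif2ak3 (PERK) start the unfolded protein response, and the factors Atf6 and Xbp1 bind the ER stress response element (ERSE) in promoters of chaperone genes. The prostate gland secretes large amounts of protein, so its epithelium depends on this system.

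Because the ER genes lead the module, the stretches of their promoters that hold this element are shown first, in RefSeq sequence of GRCm38.p6. Windows from 250 bases before to 50 bases after an annotated start were searched on both strands for the ERSE, which is CCAAT, 9 bases of any kind and CCACG. Of the 8 ER genes among the falling genes, 6 had a window and 4 of these held the element. In the lines below, the capitals mark its fixed letters, and they read as the reverse complement where the element lies on the other strand.
Hspa5: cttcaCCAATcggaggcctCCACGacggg
Creld2: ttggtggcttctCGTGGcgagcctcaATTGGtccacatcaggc
Syvn1: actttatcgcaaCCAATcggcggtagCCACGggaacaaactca
Hsp90b1: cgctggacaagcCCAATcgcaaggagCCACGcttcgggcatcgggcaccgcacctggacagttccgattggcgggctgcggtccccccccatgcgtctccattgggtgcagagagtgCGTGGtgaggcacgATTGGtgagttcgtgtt

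The Hspa5 stretch lies at chr2:34772020-34772048 on the plus strand, 70 to 42 bases before the RefSeq start. GENCODE M21 sets the start of Hspa5 earlier, at 34771970, so that the stretch is inside an exon there. The Creld2 stretch lies at chr15:88819508-88819550 and the Syvn1 stretch at chr19:6046520-6046562, both on the plus strand and upstream of the gene. The Hsp90b1 stretch, at chr10:86705521-86705668 on the minus strand, is upstream of the gene and holds the element 2 times, in opposite directions. Of all 32851 windows, 39 (0.119%) held the element. The windows of the ER genes that are not members also held it, in 4 of 18 genes (Calr, Canx, Dnajc3 and Pdia6), so it was not particular to the members. The related element ERSE-II, which is ATTGG, any base and CCACG, was in no member's window, in those of the non-members Dnajb11 and Herpud1, and in 0.0365% of all windows. In all, 20 of the 31 falling and 7 of the 12 rising genes had a window, and no rising gene's window held either element. A match of letters is a description and does not show that a factor binds.

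**Figure D1:**
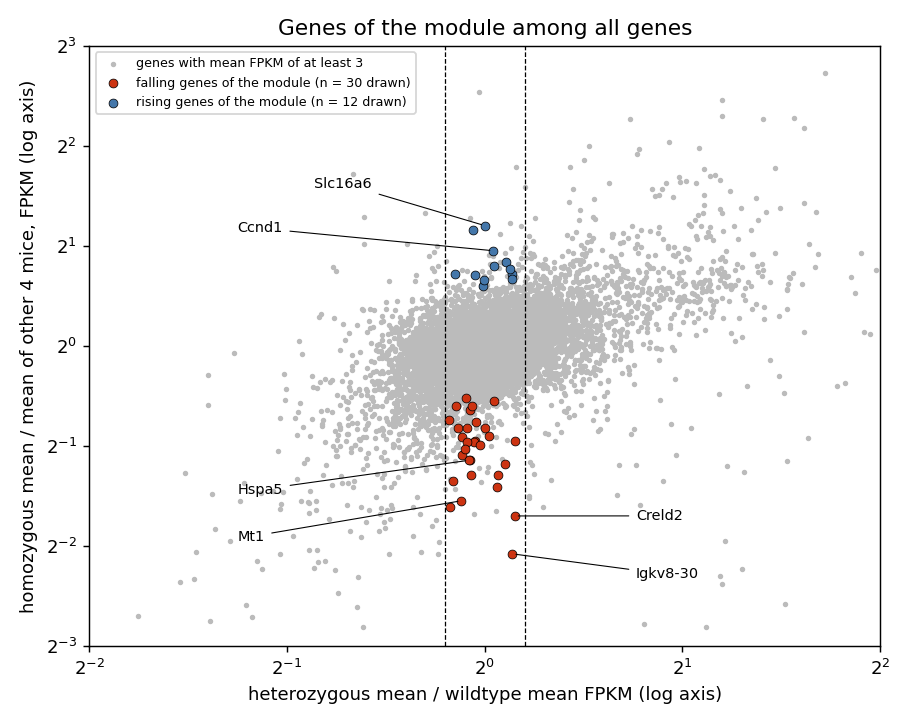
Ratio of the heterozygous to the wildtype mean FPKM (horizontal) against the ratio of the homozygous mean to the mean of the other 4 mice (vertical), both on log axes, for 10942 of the 11028 genes at a mean FPKM of 3 or more; the other 86 lie beyond the axes or have no ratio. Dashed lines mark 0.87 and 1.15, red points 30 falling genes (Gm23442, at 0 in both homozygous mice, is not drawn) and blue points the 12 rising genes; by the way they were chosen, red points lie low and blue points high.

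The module holds the smaller share of the genes that met the homozygous criterion. Regardless of the heterozygous mice, 108 genes (0.979% of the 11028) had both homozygous values at most 0.75 times the lowest of the other 4. Their heterozygous mean was below the band of 0.87 to 1.15 in 59 genes, within it in the 31 falling genes and above it in 18. In the other direction, 59 genes (0.535%) had both homozygous values at least 1.33 times the highest of the others. Here the heterozygous mean was above the band in 37, within it in the 12 rising genes, below it in 2, and without a ratio in 8 genes listed at 0 in all wildtype and heterozygous mice. Leaving out a mouse changed which genes met the rule, and made the criterion easier to meet by construction in most cases. The falling genes numbered 20 without heterozygous mouse 37, 147 without heterozygous mouse 40, 83 without homozygous mouse 47 and 325 without homozygous mouse 49, and the rising genes 37 without wildtype mouse 39, 64 without mouse 40, 48 without mouse 47 and 172 without mouse 49. Of the 31 falling genes, 14 were still among them without heterozygous mouse 37, with 4 of the 8 genes of ER folding described below, and 17 without wildtype mouse 39, with 6 of the 8.

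No member passed the test across all genes as it was set. In the limma fit of log2(FPKM + 0.1) over 13818 genes, homozygous mice against the other 4 gave 13 genes lower (0.0941% of those tested) and 1 higher (0.00724%) at an adjusted p-value under 0.05, and 0 of the 43 members were among them. At an unadjusted p-value under 0.05, 30 of the 31 falling genes were lower and 12 of the 12 rising genes higher, beside 8.76% and 6.29% of all genes. The rule used this contrast, so nothing is read from these counts. Likewise 0 of the 43 members passed in homozygous against wildtype mice (29 falling genes lower and 12 rising genes higher at the unadjusted p, beside 9.32% and 8.65% of all genes), in homozygous against heterozygous mice (29 and 12, beside 4.42% and 1.97%) or in heterozygous against wildtype mice (0 and 0, beside 2.21% lower and 4.66% higher). Of all genes, 0.261% were called lower and 0.123% higher in homozygous than in wildtype mice, 0.00724% in either direction in homozygous against heterozygous mice, and 0 in heterozygous against wildtype mice, where 949 passed the unadjusted threshold. Under the alternative settings members were called in few cases, Gm11974 against wildtype with a filter at a mean FPKM of 3, and without mouse 49 the genes Gm11535, Gm11974, Lipc and Pdia4 against the other 4 mice, Lipc and Pdia4 against wildtype and Lipc against heterozygous mice.

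Mouse 47 stood apart from the others in its prostate genes, and this bears on every comparison with homozygous mice. Probasin (Pbsn), a secretory protein that defines the mouse prostate, had an FPKM of 257 in mouse 47 and between 7329 and 11512 in the other 5 mice. Tgm4, a transglutaminase of the prostate secretion, was 131 there and between 3179 and 9059.8 elsewhere. The seminal vesicle gene Svs4 was listed at 0 in mouse 47, although the seminal vesicle genes summed highest there. The 19 measured prostate secretory genes nevertheless summed to 68629 in mouse 47, inside the range of 45826 to 86792 of the other mice. This sum does not separate the tissues, since Svs3b and Pate4 are also on the seminal vesicle list. Of the 18 with a mean FPKM of at least 3, 5 had both homozygous values below the others and 1 had both above. The shares over all such genes were 19.4% and 9.29%. Their median log2 difference of homozygous mice from the other 4 was -0.94, beside -0.05 over all such genes. The summed FPKM of 10 seminal vesicle genes was 3599 in wildtype mouse 39, 83035 in mouse 47 and between 35812 and 57853 in the rest. Relative depth, estimated from the spacing of the lowest values, lay between 0.79 in mouse 47 and 1.07 in mouse 49, where mouse 39 is 1. Homozygous mouse 49 was also below all 4 wildtype and heterozygous mice in Pbsn (7329, beside 8174 to 11512) and Tgm4 (3179, beside 4124 to 9060). In the prostate secretory gene Msmb mouse 49 was within their range (2556, beside 1683 to 4708). Mouse 49 met the homozygous criterion for every member, as the rule required.

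**Figure D2:**
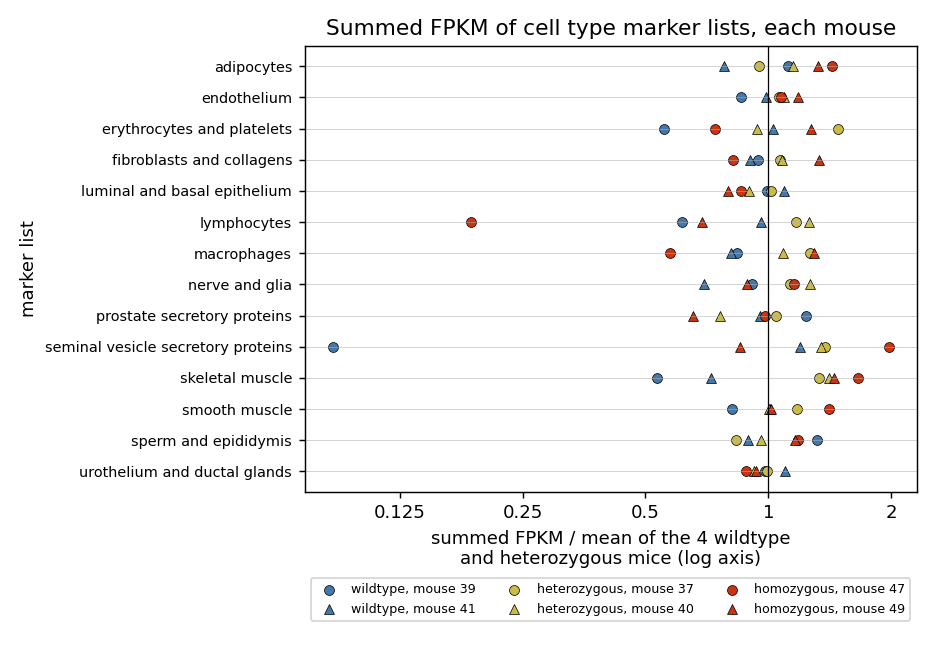
Summed FPKM of 14 lists of cell type markers in each mouse, divided by the mean of the 4 wildtype and heterozygous mice (log axis); symbols give the genotype and the animal. Mouse 47 is lowest in lymphocyte genes (110.4) and mouse 39 in seminal vesicle genes (3599), and both homozygous mice lie below the other 4 in epithelial genes.

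The genes of ER folding were the largest group of falling genes. Of a list of 28 genes of ER folding and the unfolded protein response, 8 were falling genes and 0 were rising genes, and all 28 had a mean FPKM of at least 3. The other 36 lists of cell types and processes that were compared held 0 members of the module. As the members are 43 of 11028 genes, little can be read from the absence of members in a short list. Both homozygous values were below all 4 others for 19 of the 28 genes, beside 19.4% of all genes at a mean FPKM of 3 or more, and the median log2 difference of homozygous mice from the other 4 was -0.48, beside -0.05 over those genes. The list was chosen with the module known, so this is a description.

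Hspa5 (BiP), the ER member of the Hsp70 family and the chaperone that also holds the stress sensors inactive, had an FPKM of 839 and 897 in wildtype and 899 and 746 in heterozygous mice, against 348 and 418 in homozygous mice. Wildtype and heterozygous mice overlapped, and both homozygous mice were well below them, with a mean 0.453 times that of the other 4 (log2 difference -1.14, SE 0.18). Hsp90b1 (GRP94), the Hsp90 of the ER, had 452 and 477 in wildtype and 439 and 458 in heterozygous mice, compared with 189 and 284 in homozygous mice. The 4 mice with a wildtype allele differed by at most 1.09-fold in this gene, and the 2 homozygous mice by 1.51-fold. Hyou1 (GRP170), a large Hsp70 relative that releases nucleotide from BiP, had 137 and 150.3 in wildtype and 163 and 129 in heterozygous mice, against 74.7 and 81.0 in homozygous mice. Sdf2l1, a partner of BiP and its DnaJ cofactor, had 205 and 255 in wildtype and 244 and 194 in heterozygous mice, compared with 84.3 and 119 in homozygous mice. In each of these 4 chaperones mouse 47 was the lower of the 2 homozygous mice.

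The genes for disulfide exchange and for secreted ER proteins followed the same order. Creld2, an ER protein with disulfide isomerase activity, had 196 and 288 in wildtype and 299 and 239 in heterozygous mice, against 64.0 and 93.4 in homozygous mice. Its homozygous mean was 0.308 times that of the other 4 mice (log2 difference -1.70, SE 0.24), the lowest ratio of the 8 ER genes. Pdia4, a disulfide isomerase, had 179 and 210.4 in wildtype and 194 and 177 in heterozygous mice, compared with 58.1 and 97.1 in homozygous mice. Manf, which binds BiP and is released from stressed cells, had 381 and 487 in wildtype and 473 and 361 in heterozygous mice, against 226 and 213 in homozygous mice. Manf was the only gene of the 8 that was lower in mouse 49 than in mouse 47. Syvn1 (HRD1), the ubiquitin ligase that marks misfolded ER proteins for degradation, had 90.8 in both wildtype mice, 109.9 and 71.8 in heterozygous mice, but 51.1 and 51.9 in homozygous mice. In Syvn1 the 2 heterozygous mice lay on either side of wildtype and were farther apart than the distance of the lower heterozygous mouse from the homozygous mice.

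Across the 8 ER genes, the level in mouse 47 was between 0.251 and 0.563 times the mean of the 4 wildtype and heterozygous mice (median 0.413). In mouse 49 it was between 0.366 and 0.623 times that mean (median 0.521). The heterozygous to wildtype ratio of means lay between 0.948 and 1.11, and the log2 difference of heterozygous from wildtype mice between -0.08 and 0.17 with an SE of 0.16 to 0.28. With errors of this size, a moderate difference between heterozygous and wildtype mice was not detectable in these genes.

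By role, the members lay mostly in the folding machinery. Among 15 chaperones and foldases, 7 were falling genes and 15 had both homozygous values below all others. Among the 4 genes of degradation these numbers were 1 (Syvn1) and 2, and among the 3 of translocation 0 and 2. Among the 6 sensors and transcription factors they were 0 and 0. Over all genes at a mean FPKM of 3 or more, 19.4% had both homozygous values below the others. Xbp1, a factor that drives these genes, had 168 and 149.6 in wildtype and 158 and 149.0 in heterozygous mice, compared with 168 and 144 in homozygous mice, which lay on either side of the other 4. Ern1, the sensor that splices Xbp1, had 22.3 and 29.6 in wildtype and 18.1 and 22.8 in heterozygous mice, against 22.6 and 28.1 in homozygous mice, which also overlapped. Gene-level FPKM does not show how much Xbp1 RNA was spliced. Atf6 was 10.4 in mouse 47 and 23.8 in mouse 49, the latter within the range of 23.1 to 34.6 of the other mice.

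Calr met the homozygous criterion, Pdia6 came near to it, and both had a heterozygous level below the band. Pdia6, a disulfide isomerase with 637 and 675 in wildtype and 546 and 468 in heterozygous mice, compared with 176 and 355 in homozygous mice, had a heterozygous ratio of 0.773, and its higher homozygous value was 0.758 times the lowest other. Calr (calreticulin), a chaperone of glycoproteins, had 743 and 808 in wildtype and 677 and 663 in heterozygous mice, against 359 and 475 in homozygous mice, with a ratio of 0.864 just under the band. In both genes all heterozygous values lay between the wildtype and the homozygous ones. Of the 20 ER genes that are not members, 10 had a ratio below the band and 10 within it. Over all 11028 genes at a mean FPKM of 3 or more, 7121 were within it.

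**Figure D3:**
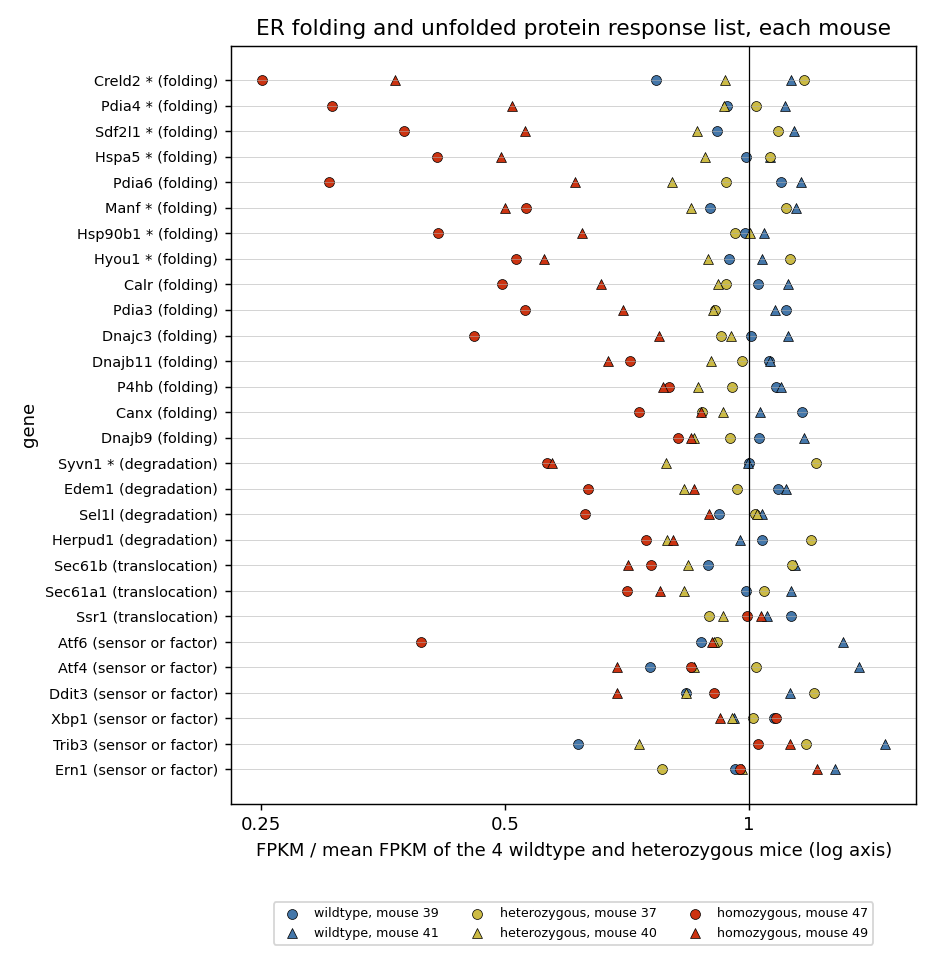
FPKM of the 28 genes of the ER list in each mouse, divided by the mean of the 4 wildtype and heterozygous mice (log axis), ordered by role and then by the homozygous level; an asterisk marks the 8 falling genes. Both homozygous mice lie left of all other mice in the 15 folding genes, and do so together in 0 of the 6 sensors and factors.

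Epithelial markers were set beside these genes, since ER chaperones are abundant in secretory cells. The sum of 23 epithelial markers was 2076 and 1922 in homozygous mice, 2398 and 2648 in wildtype and 2451 and 2175 in heterozygous mice. Both homozygous mice were thus the lowest in the sum. Of the 22 markers with a mean FPKM of at least 3, 7 had both homozygous values below the others, beside 19.4% of all such genes. Their median log2 difference was -0.10, beside -0.05 over all such genes. Epcam, which is among these 7, had 239 and 213 in wildtype and 209 and 188 in heterozygous mice, compared with 155 and 171 in homozygous mice. Krt8, which is not, had 163 and 189 in wildtype and 169 and 154 in heterozygous mice. In homozygous mice Krt8 was 179 in mouse 47, inside that range, and 134 in mouse 49. Lists of secretory and androgen-regulated genes were lower than the epithelial list. The median log2 difference was -0.94 in the prostate secretory list and -0.45 in the list of the androgen receptor and its prostate targets. In the latter, 5 of 17 genes had both homozygous values below the others and 2 had both above. Heterozygous mice differed from wildtype by medians of -0.40 and -0.21 in these lists. The part of the epithelial share, and of the prostate genes, in the levels of the ER genes was not tested.

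The metallothioneins Mt1 and Mt2, small proteins that bind zinc and copper and are induced by metals, glucocorticoids and oxidative stress, were the most abundant falling genes. Mt1 had 3077 and 4878 in wildtype and 4629 and 2705 in heterozygous mice, against 826 and 1792 in homozygous mice. Mt2 had 2196 and 3475 in wildtype and 3191 and 1881 in heterozygous mice, compared with 723 and 1383 in homozygous mice. In both genes the mice had the same order, with mouse 41 highest and mouse 47 lowest, and the homozygous means were 0.342 and 0.392 times those of the other 4. The spread was wide in every group, with up to 1.85-fold between the 4 mice with a wildtype allele in Mt2 and 2.17-fold between the homozygous mice in Mt1. The 2 genes lie 5513 bases apart on chromosome 8 and have similar coding sequences, so reads could be shared between them.

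Metallothionein promoters are known for metal response elements, bound by the factor Mtf1, and the core of this element nearest upstream of each RefSeq start is shown in capitals (TGCACNC or TGCGCNC, on either strand).
Mt1: cgctgTGCACACtggcg
Mt2: agggcGTGTGCAggctc

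The Mt1 stretch lies at chr8:94179061-94179077 and the Mt2 stretch at chr8:94172563-94172579, both on the plus strand. The Mt2 stretch is also covered by an exon of an antisense noncoding gene in GENCODE M21. The core is common, being in 25.7% of all windows and in those of 5 falling genes (also Hsp90b1, Sdf2l1 and Ppt2) and 4 rising genes. Mtf1 had 4.96 and 6.99 in wildtype and 5.86 and 5.89 in heterozygous mice, against 4.96 and 4.41 in homozygous mice. Slc30a1, a zinc exporter that also responds to zinc through Mtf1, had 5.87 and 4.61 in wildtype and 5.29 and 6.60 in heterozygous mice, compared with 5.02 and 6.48 in homozygous mice. Neither gene separated the homozygous mice from the rest.

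Of the other protein-coding falling genes, Abcc3, Lipc and Ppt2 code for a transporter and 2 enzymes. Abcc3 (MRP3), which exports organic anions and conjugates, had 27.3 and 31.5 in wildtype and 30.8 and 23.4 in heterozygous mice, against 10.5 and 16.1 in homozygous mice. Hepatic lipase, Lipc, had 3.92 and 5.10 in wildtype and 4.25 and 3.72 in heterozygous mice, compared with 0.167 and 2.62 in homozygous mice. The 15.7-fold gap between the 2 homozygous mice in Lipc was the widest in the module, and mouse 49 alone was at 0.616 times the mean of the other 4. Ppt2, a lysosomal thioesterase, had 48.2 and 43.5 in wildtype and 44.2 and 41.5 in heterozygous mice, against 30.9 and 31.0 in homozygous mice. Its homozygous mean, 0.697 times that of the others, was nearest to the other mice among the falling genes.

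Genes of blood vessels and immune cells were few and low. Mmrn2, an extracellular protein of the endothelium, had 6.87 and 8.68 in wildtype and 7.57 and 7.70 in heterozygous mice, compared with 3.01 and 4.74 in homozygous mice. The sum of 19 endothelial markers was not lower in homozygous mice, with 305 and 337, beside 243 and 281 in wildtype and 302 and 311 in heterozygous mice. Of the 17 with a mean FPKM of at least 3, 0 had both homozygous values below the others. Igkv8-30, a variable segment of the immunoglobulin kappa chain, had 13.1 and 7.14 in wildtype and 11.0 and 11.3 in heterozygous mice, against 1.24 and 3.81 in homozygous mice. Its homozygous mean was 0.237 times that of the others, the lowest ratio of the 30 falling genes above 0 in every mouse. The sum of 20 lymphocyte markers was 110.4 and 406 in homozygous, 363 and 567 in wildtype and 688 and 741 in heterozygous mice, so mouse 47 was the lowest and mouse 49 was within the wildtype range. The constant segment Igkc is itself on this list and makes up most of the sum in each mouse, so the sum follows it. Igkc had 83.5 and 272 in homozygous, 228 and 371 in wildtype, and 495 and 526 in heterozygous mice. The part of the number of plasma cells in Igkv8-30 was not tested.

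Signalling genes were also among the falling genes. Ifngr2, the signalling chain of the interferon-gamma receptor, had 24.3 and 23.9 in wildtype and 21.8 and 20.6 in heterozygous mice, compared with 11.8 and 15.4 in homozygous mice. Its partner chain Ifngr1 is not a member, with 34.4 in mouse 49, inside the range of 31.5 to 46.1 of wildtype and heterozygous mice, and 19.2 in mouse 47. Traf4, an adaptor of receptor signalling, had 12.4 and 12.8 in wildtype and 13.6 and 12.4 in heterozygous mice, against 9.22 and 8.35 in homozygous mice, and Traf4 was lower in mouse 49 than in mouse 47. The remaining protein-coding falling genes, named so that every member is accounted for, were Gpn2, Cfap126, Armc7, N4bp3, Epn3, Fhod1 and 4930415O20Rik. Of these, Epn3, an adaptor of clathrin-coated pits, had 33.4 in both wildtype mice, 34.1 and 29.8 in heterozygous mice, but 21.5 and 21.7 in homozygous mice. The homozygous means of the 7 genes were between 0.409 (4930415O20Rik) and 0.662 (Epn3) times those of the other mice.

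Noncoding RNAs made up 8 of the 31 falling genes together with the immunoglobulin segment. Gm11974, which GENCODE M21 names Snhg15, a host gene of a small nucleolar RNA, had 34.4 and 33.8 in wildtype and 37.8 and 33.4 in heterozygous mice, compared with 15.1 and 11.1 in homozygous mice. The 4 mice with a wildtype allele differed by at most 1.13-fold in it, and mouse 49 was the lower homozygous mouse. Bvht (Braveheart), a long noncoding RNA known from heart development, had 5.93 and 8.83 in wildtype and 7.96 and 5.81 in heterozygous mice, against 3.18 and 3.82 in homozygous mice. Gm20627 and Gm11535 are annotated as noncoding transcripts, and Gm12328 and Gm4604 as processed pseudogenes, whose reads could also come from their parent genes. The homozygous means of these 4 were between 0.443 (Gm20627) and 0.532 (Gm12328) times those of the others. Gm23442, a small nucleolar RNA inside the Prrc2a gene, was listed at 0 in both homozygous mice, but also in wildtype mouse 39 and heterozygous mouse 40, and at 11.4 in mouse 41 and 11.6 in mouse 37. It meets the rule only because the lowest other value is 0, its groups overlap, and it is left out of the medians of levels.

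**Figure D4:**
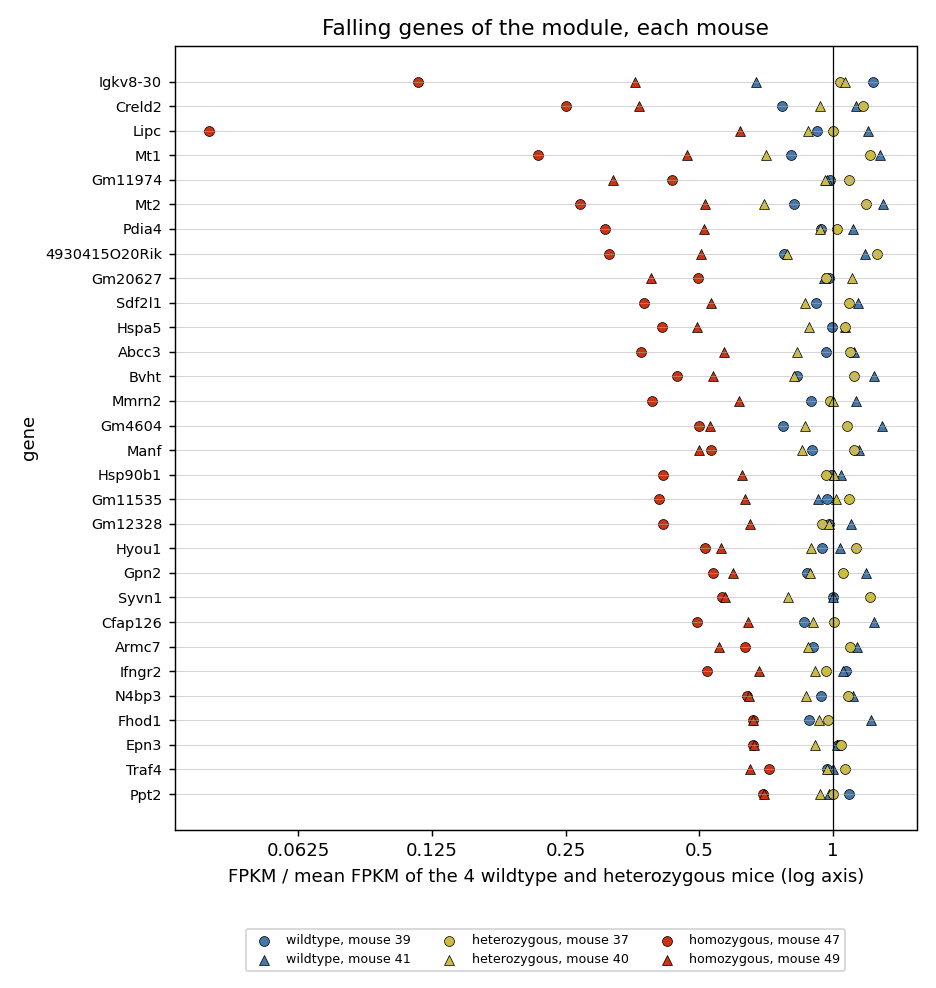
FPKM of the 30 falling genes above 0 in every mouse, each divided by the mean of the 4 wildtype and heterozygous mice (log axis) and ordered by the homozygous level; red symbols are homozygous mouse 47 (circle) and mouse 49 (triangle). The homozygous mice lie left of the others by the way the genes were chosen, and mouse 47 is the lower of the 2 in 24 genes.

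Over the 30 falling genes the homozygous mean was between 0.237 and 0.697 times that of the other 4 mice, with a median of 0.515. The median was 0.440 in mouse 47 and 0.564 in mouse 49, beside 0.959 and 0.956 over all genes at a mean FPKM of 3 or more. Mouse 47 was the lower of the 2 in 24 of the 30 genes. The 2 homozygous mice differed from each other by a larger factor than the 4 other mice did in 15 of the 30.

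The rising genes had no group of the size of the ER genes, and 0 of them were on any of the 37 lists. With 12 rising genes among 11028, little can be read from the latter. Cyclin D1 (Ccnd1), which drives entry into the cell cycle and binds Cdk4 and Cdk6, had 33.3 and 45.5 in wildtype and 37.8 and 43.4 in heterozygous mice, compared with 92.1 and 62.9 in homozygous mice. Its homozygous mean was 1.94 times that of the other mice (log2 difference 0.94, SE 0.21), and mouse 47 was the higher. Its relatives are not members, with Ccnd2 between 8.13 and 11.4 in wildtype and heterozygous mice and at 10.6 and 13.1 in homozygous mice, and Ccnd3 between 64.0 and 83.7 and at 58.4 in both homozygous mice. Smc4, a core subunit of condensin, had 5.74 and 5.55 in wildtype and 5.31 and 5.92 in heterozygous mice, against 8.54 and 8.55 in homozygous mice. Its partner subunit Smc2 had 0.736 and 0.911 in wildtype and 0.786 and 0.833 in heterozygous mice, compared with 1.12 and 0.896 in homozygous mice, and was below the minimum level of the rule. Of a list of 30 genes of replication and mitosis, only 9 had a mean FPKM of at least 3. Of these 9, 0 were members, beside 43 of all 11028 genes at that level, so little can be read from it.

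Both enzymes that transfer phosphocholine to ceramide were rising genes. Sgms1, the sphingomyelin synthase of the Golgi, had 8.38 and 10.4 in wildtype and 9.42 and 11.2 in heterozygous mice, against 15.9 and 15.4 in homozygous mice. Sgms2, that of the plasma membrane, had 15.3 and 24.6 in wildtype and 19.1 and 22.1 in heterozygous mice, compared with 34.7 and 36.1 in homozygous mice. In Sgms2 the 2 homozygous mice differed by 1.04-fold, while the 2 wildtype mice were the lowest and the highest of the other 4. Their relative Samd8, which makes ceramide phosphoethanolamine, had 3.31 and 3.92 in wildtype and 3.52 and 4.06 in heterozygous mice, against 4.76 and 4.13 in homozygous mice, and did not meet the rule.

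The other rising enzymes and transporters act on signals and nutrients. Hpgd, which inactivates prostaglandins and was the most abundant rising gene, had 72.9 and 74.6 in wildtype and 72.3 and 70.0 in heterozygous mice, compared with 133 and 103 in homozygous mice. The 4 mice with a wildtype allele differed by at most 1.07-fold in Hpgd. Nt5e (CD73), which makes adenosine from AMP outside the cell, had 8.26 and 8.29 in wildtype and 8.76 and 9.07 in heterozygous mice, against 17.7 and 13.2 in homozygous mice. Slc16a6, of the monocarboxylate transporter family, had 3.15 and 3.13 in wildtype and 2.75 and 3.54 in heterozygous mice, compared with 8.71 and 5.76 in homozygous mice. Its homozygous mean, 2.30 times that of the other mice (log2 difference 1.15, SE 0.21), was the highest ratio of the module. The transferrin receptor Tfrc, which takes up iron, had 3.71 and 4.54 in wildtype and 3.77 and 5.30 in heterozygous mice, against 7.15 and 7.10 in homozygous mice. Usp53, of the deubiquitinase family, had 2.98 and 2.72 in wildtype and 2.73 and 2.95 in heterozygous mice, compared with 4.21 and 4.81 in homozygous mice.

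Of the 3 noncoding rising genes, Mir143hg, which GENCODE M21 names Carmn and which is known from smooth muscle, had 3.33 and 2.58 in wildtype and 2.50 and 3.16 in heterozygous mice, against 7.43 and 5.50 in homozygous mice. It lies 2152 bases from Bvht on chromosome 18, so that a falling and a rising gene are neighbours there, on opposite strands. The sum of 18 smooth muscle markers was 5750 in mouse 47 and 4131 in mouse 49, beside 3327 to 4106 in wildtype and 4079 to 4780 in heterozygous mice. Of the 17 with a mean FPKM of at least 3, 7 had both homozygous values above the others, beside 9.29% of all such genes. In mouse 49 the sum was thus within the range of the other mice. The part of smooth muscle in Mir143hg was not tested. AV026068, which GENCODE M21 names Hand2os1 and which overlaps Hand2 on the opposite strand, had 2.60 and 2.34 in wildtype and 2.64 and 2.76 in heterozygous mice, compared with 4.91 and 3.89 in homozygous mice. Hand2 had 9.10 and 4.65 in homozygous mice and between 4.36 and 7.80 in the others. Whether the strand of the reads was used in counting is not given in the sources used here, so reads of Hand2 and Hand2os1 may not be told apart. AW112010 had 6.85 and 5.38 in wildtype and 5.45 and 5.57 in heterozygous mice, against 9.41 and 9.76 in homozygous mice.

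**Figure D5:**
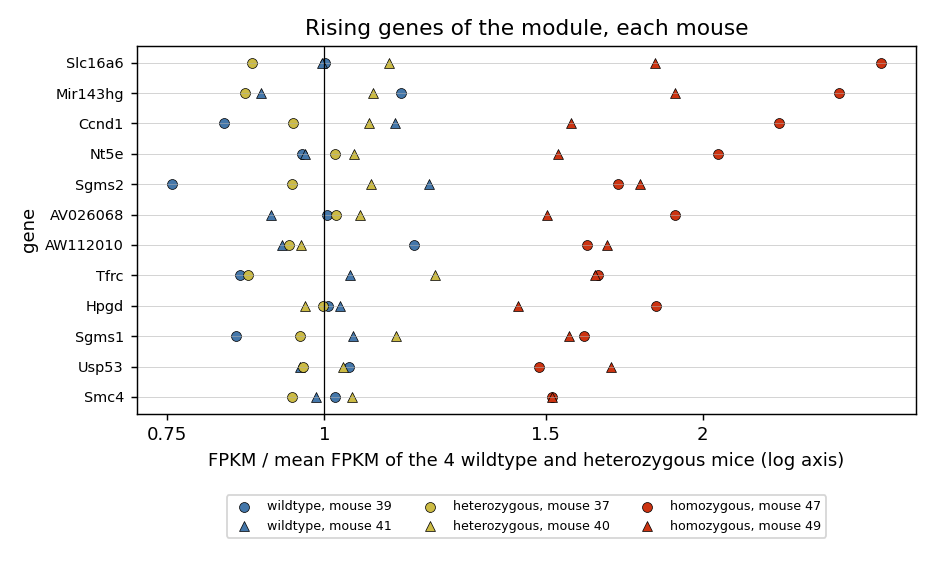
FPKM of the 12 rising genes in each mouse, divided by the mean of the 4 wildtype and heterozygous mice (log axis) and ordered by the homozygous level. The homozygous mice lie right of the others by the way the genes were chosen, with mouse 47 farther right in 8 genes.

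Over the 12 rising genes the homozygous mean was between 1.52 and 2.30 times that of the other mice, with a median of 1.68. The median was 1.78 in mouse 47 and 1.61 in mouse 49, and mouse 47 was the higher in 8 genes. The summed adipocyte and skeletal muscle markers were also highest in both homozygous mice. Gene by gene, both homozygous values were above the others in 4 of 14 adipocyte and 10 of 26 skeletal muscle markers. These are the markers with a mean FPKM of at least 3, and the share over all such genes was 9.29%. The sum of 16 adipocyte genes was 997 and 925, beside 544 to 802 in the other mice, and that of 29 skeletal muscle genes was 9710 and 8508, beside 7823 and 8264 in heterozygous and 3128 and 4248 in wildtype mice. No rising gene is on either list, and the part of these tissues was not tested.

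The members were compared in features that the rule did not use. The median GC content of the transcripts was 53.9% in the 31 falling and 42.4% in the 12 rising genes, beside 50.3% over all genes at a mean FPKM of 3 or more with an annotated transcript. The median length of the longest transcript was 1750 bases in the falling and 4016 bases in the rising genes, beside 3191 bases. Chromosome 11, which also carries Trp53, held 8 of the 31 falling genes (25.8%) and 8.76% of all genes at a mean FPKM of 3 or more. These were Gm11974, N4bp3, Gm12328, Traf4, Abcc3, Epn3, Gm11535 and Armc7, at 4.18 to 63.1 Mb from Trp53. Alleles of the strain that lie beside the mutation would be inherited with it, and their part cannot be told apart from the genotype here. Within 100 kb of each other lay Mt1 and Mt2, Abcc3 and Epn3, and Bvht and Mir143hg.

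No gene of a list of known p53 targets was in the module. Of the 37 listed targets with a mean FPKM of at least 3, 14 met the homozygous criterion for falling genes, beside 0.979% of all such genes. All 14 had a heterozygous ratio below the band, beside 59 of all 108 genes that met the criterion. Cdkn1a (p21), the cell cycle inhibitor that p53 induces, is an example, with 109.0 and 100.6 in wildtype and 40.5 and 41.4 in heterozygous mice, compared with 6.70 and 6.17 in homozygous mice. The heterozygous mice lay between the other genotypes in Cdkn1a, while in the members the rule itself set their mean beside wildtype. The letters of a p53 half-site were in the windows of 3 falling genes (Hsp90b1, Gpn2 and Cfap126) and 1 rising gene (Sgms1), and in 8.36% of all windows. Of the 67 cytosolic ribosomal proteins, 48 had both homozygous values below the others. The share over all genes that reached the FPKM limit of the rule was 19.4%. The median log2 difference of the ribosomal list was -0.35, beside -0.05 over all those genes. The ribosomal list held 0 members, but with 43 members among 11028 genes little can be read from it.

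The genes nearest to each limit of the rule are given without test, leaving out predicted and RIKEN identifiers, of which AW112010 (heterozygous ratio 0.901) and Gm11535 (1.11) were members nearer to a limit of the ratio than those named. For the homozygous criterion, the higher homozygous value was 0.748 times the lowest other in both Cfap126 and Ifngr2, which are members, and 0.754 times in both Cbx8 and Tmem97, which are not. Among rising genes the lower homozygous value was 1.34 times the highest other in Tfrc and 1.37 times in Sgms1, and outside the rule 1.325 times in Cfd and 1.32 times in Pik3c2a. For the heterozygous ratio of falling genes, Ifngr2 (0.882) and Lipc (0.884) were just inside the lower limit, and Chrm1 (0.868) and Calr (0.864) just outside. At the upper limit Creld2 (1.11) and Igkv8-30 (1.10) were inside, and Derl3 (1.17), an ER degradation gene, and Igkv2-137 (1.75) outside. For rising genes, Mir143hg (0.958) and Hpgd (0.965) came after AW112010 inside the lower limit and Mrap (0.847) and Setdb2 (0.812) outside, while Sgms1 and Tfrc (both 1.10) were inside the upper limit and Mamld1 (1.15, above the limit before rounding) and Rhobtb1 (1.16) outside. The mean FPKM was lowest in Lipc (3.30) and Cfap126 (3.47) among falling genes and in AV026068 (3.19) and Usp53 (3.40) among rising genes. It was just too low in Tmem265 (2.72), Rpl10-ps3 (2.54), Tstd3 (2.56) and Snai2 (2.54).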

How the data were processed

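The deposited values are FPKM per gene and mouse. The authors prepared stranded mRNA libraries from snap-frozen prostates and sequenced read pairs, and the submitters' processing notes name bcl2fastq, HISAT, Cufflinks, Cuffnorm and mm10 (GRCm38), with versions not given in the sources used here. Fragment counts and absolute depth are unknown, so counting error could not be estimated apart from the spread between mice. The p-values rest on the spread within genotypes of 2 mice each, with the variance pooled over genotypes and shared across genes. No 2 mice had identical values. Of 47719 identifiers, 47219 are in GENCODE M21, and for 124 symbols with several identifiers that with the highest mean FPKM was used.

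The module was taken from FPKM as deposited. For tests, log2(FPKM + 0.1) of genes at a mean FPKM of 1 or more entered a linear model in limma 3.58.1 under R 4.3.3 (3 genotypes, intensity trend, Benjamini-Hochberg adjustment, threshold 0.05), after the fit had been tested on simulated data. Log2 differences on this scale understate changes of low genes. Tables and figures used Python 3.11.15, numpy 2.4.6, pandas 2.3.3 and matplotlib 3.10.9. Alternatives covered the pseudocount, filters, scaling, the prior, the limits of the rule and each mouse. Named were the 12 falling and 12 rising genes with the largest log2 difference, the 6 of each with the highest mean FPKM, members on a list and genes at the limits of the rule. Predicted and RIKEN identifiers were left out, and at the limits also genes listed at 0 in a wildtype or heterozygous mouse. Other genes were added for completeness after their values were seen. The members and all gene lists were chosen with earlier results of these data known. Promoter windows came from RefSeq (GRCm38.p6), matched by symbol or gene identifier.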

Additional observations from a re-analysis of the deposited data

How the results depend on the processing

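The 43 members were chosen at fixed limits, and their number moved with these. With a mean FPKM of at least 1 there were 52 falling and 27 rising genes. A heterozygous ratio between 0.93 and its reciprocal gave 20 and 7, and one between 0.80 and its reciprocal gave 19 rising genes. With homozygous values at most 0.67 or at least 1.5 times the others, 14 falling genes (7 of them on the ER list) and 2 rising genes remained. Quantile normalization gave 19 rising genes and kept 21 of the 31 falling genes, with 6 of the 8 ER genes. Median scaling kept 25, with all 8. Without genes listed at 0 in any mouse, an alternative added after seeing the data, 30 falling genes were left. Leaving out each mouse gave between 20 and 325 falling and between 11 and 172 rising genes. Of the 8 ER genes, 4 met the rule without heterozygous mouse 37, 6 without wildtype mouse 39 or heterozygous mouse 40, and 7 without wildtype mouse 41.

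The number of genes called by limma in homozygous mice against the other 4 was 14, but 4 without a filter, 0 with each gene's own variance, and 3 to 118 when a mouse was left out. Against wildtype it was 53, but 23 with a prior without trend, 4 without a filter, 0 with each gene's own variance, and 4 to 128 without a mouse. Against heterozygous mice it was 2, but 1 with a pseudocount of 0.01 or a mean FPKM of at least 3, 0 with each gene's own variance, and 0 to 54 without a mouse. Heterozygous against wildtype mice gave 0 to 2. The highest numbers in the comparisons with homozygous mice came without mouse 49, when mouse 47 alone stood for them and was assumed to vary like the other groups. Of 387 recalculated log2 differences of the 43 members, whose sign the choice of members fixes, 37 moved by more than the residual SD. No paired analysis was possible because the animals carry their own numbers and no number is shared between genotypes. The spread between 2 mice per genotype and the unknown depth limit what these values can show.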
